A study of Homo sapiens with 15 samples.

Results

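TOP1 and CLYBL are 2 of 14884 genes named on a whole-transcript array used on Caco-2 cells, and they were chosen by their measured values, because both were called in a test of resveratrol-pretreated against endotoxin-only cells on these same arrays. Each symbol had 1 row in the table of 53617 rows, so taking the brightest row per symbol changed nothing for either gene. Both rows passed the filter on low values, lying above the 40th percentile of all rows on 15 of 15 arrays, and 11804 genes passed it in all.

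Caco-2 is a human colon carcinoma line that acquires features of absorptive enterocytes when kept at confluence. The LPS+RSV group had 50 µM trans-resveratrol, a plant polyphenol, for 1 h, then lipopolysaccharide (LPS, bacterial endotoxin, from E. coli K12) at 1 µg/mL for 48 h. The LPS group had the endotoxin alone at 1 µg/mL for 48 h, and the control group was untreated. Each group had 5 arrays, all from the same cell line, with experiments run 15 to 19 days after seeding. Resveratrol was dissolved in ethanol, and the labels do not say that the LPS or control cultures received ethanol, so resveratrol and its solvent cannot be told apart. No group had resveratrol without LPS. The labels do not say that replicates were separate cultures, so the tests measure the spread between these arrays, which may be technical, and the day of each array was not given. Of 15 listed markers of intestinal epithelium 12 had a row, and all 12 passed the filter, among them the brush-border gene VIL1 and the intestinal transcription factor CDX2. Of 14 listed markers of blood, connective tissue and vessel cells 5 had a row. The mean level of those 5 on the log2 scale spanned 5.15 to 5.33 in LPS+RSV, 5.27 to 5.45 in LPS and 5.09 to 5.30 in control, and the fibroblast marker DCN passed the 40th percentile on 0 arrays. The endothelial markers PECAM1 and VWF and the muscle marker DES passed it on 15 of 15 arrays, and DES, the brightest of the 5, averaged 6.98 in LPS+RSV, 6.75 in LPS and 6.68 in control. LUM, a matrix proteoglycan gene of the same list, averaged 4.46 in LPS+RSV, 5.43 in LPS and 4.76 in control and passed the percentile on 5 arrays. The part of these markers in the results was not tested. Over the tested genes, Pearson's r of an array with each of the others averaged 0.946 for LPS+RSV replicate 1, the array least like the rest, and between 0.973 and 0.984 for the other 14.

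TOP1 encodes DNA topoisomerase I, a nuclear enzyme that nicks a DNA strand, lets the helix unwind and reseals it. It relieves the torsion that builds up ahead of RNA polymerases and replication forks, and it is the target of the camptothecin anticancer drugs. CLYBL encodes a mitochondrial lyase that splits citramalyl-CoA into acetyl-CoA and pyruvate, a late step in the breakdown of itaconate, the dicarboxylic acid that macrophages make on contact with endotoxin. Loss of human CLYBL is associated with low circulating vitamin B12, because itaconate-derived CoA esters poison a B12-dependent mutase.

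The bases just before each gene start are shown because the values of the genes lay on opposite sides of the control level. Both run 5′ to 3′ on the plus strand of GRCh38.p14, from RefSeq, each 250 bases ending just before the annotated start, at chr20:41028572-41028821 for TOP1 and chr13:99606440-99606689 for CLYBL. Capitals mark GGGCGG (GC box), TGACGT (core of the cAMP response element) and GCGTG (core of the xenobiotic response element).

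TOP1: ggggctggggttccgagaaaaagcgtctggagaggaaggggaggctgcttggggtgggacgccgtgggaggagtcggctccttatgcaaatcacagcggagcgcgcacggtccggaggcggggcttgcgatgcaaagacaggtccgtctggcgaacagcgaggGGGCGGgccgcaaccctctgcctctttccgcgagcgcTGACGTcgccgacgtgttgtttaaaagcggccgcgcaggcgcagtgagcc

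CLYBL: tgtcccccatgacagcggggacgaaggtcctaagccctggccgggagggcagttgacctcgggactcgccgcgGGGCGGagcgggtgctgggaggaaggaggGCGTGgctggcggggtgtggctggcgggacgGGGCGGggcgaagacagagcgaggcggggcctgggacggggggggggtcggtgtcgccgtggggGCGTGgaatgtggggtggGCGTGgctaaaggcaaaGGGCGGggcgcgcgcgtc

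Both windows are rich in G and C, at 66.8% for TOP1 and 75.2% for CLYBL, where the median of 35116 such windows is 58.0%. On either strand TOP1 has 1 GC box, starting at base -87 from the gene start, and CLYBL has 3, and 42.6% of all windows hold at least 1 while 13.9% hold at least 3. TGACGT occurs once in the TOP1 window, at base -50, and in 7.1% of all windows. GCGTG has 3 matches in the CLYBL window, and 3.2% of windows have that many or more. The TATA box (TATAAA) has 0 matches in either window and occurs in 10.7% of all windows. The letters CCAAT likewise have 0 matches, where 32.0% of windows hold them, and the E-box (CACGTG) has 0, where 6.3% do. The marked motifs share 0 bases with each other. These matches describe letters only, and nothing on the arrays measured binding.

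TOP1 was lower in pretreated cells than in cells given LPS alone, with control in between and close to LPS+RSV. Its log2 values in LPS+RSV were 9.90, 10.14, 10.16, 10.10 and 10.01 for replicates 1 to 5. In LPS they were 10.68, 10.72, 10.44, 10.69 and 10.49. In control they were 10.43, 10.24, 10.16, 10.11 and 10.05. The 5 LPS arrays therefore lay above all arrays of both other groups, though LPS replicate 3 and control replicate 1 almost touched, while the LPS+RSV and control ranges overlapped in part. The means were 10.06 ± 0.11 in LPS+RSV, 10.60 ± 0.13 in LPS and 10.20 ± 0.15 in control (SD, n = 5 each).

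CLYBL ran the other way, highest in LPS+RSV and lowest in LPS. Its log2 values in LPS+RSV were 6.84, 6.53, 6.86, 7.01 and 6.94 for replicates 1 to 5. In LPS they were 6.35, 6.21, 6.45, 6.12 and 6.15. In control they were 6.56, 6.53, 6.45, 6.67 and 6.65. All LPS+RSV arrays were above all LPS arrays, and 4 of the 5 were above every control array, the exception being LPS+RSV replicate 2. That array and control replicate 2 had the same CLYBL value to every deposited digit. Pairs of arrays shared between 0.623% and 1.73% of their values in this way, and these 2 arrays shared 1.20%. LPS replicate 3 and control replicate 3 also met within rounding, so the lower end of control touched the upper end of LPS. The means were 6.84 ± 0.19 in LPS+RSV, 6.25 ± 0.14 in LPS and 6.57 ± 0.09 in control (SD, n = 5 each).

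**Figure D1:**
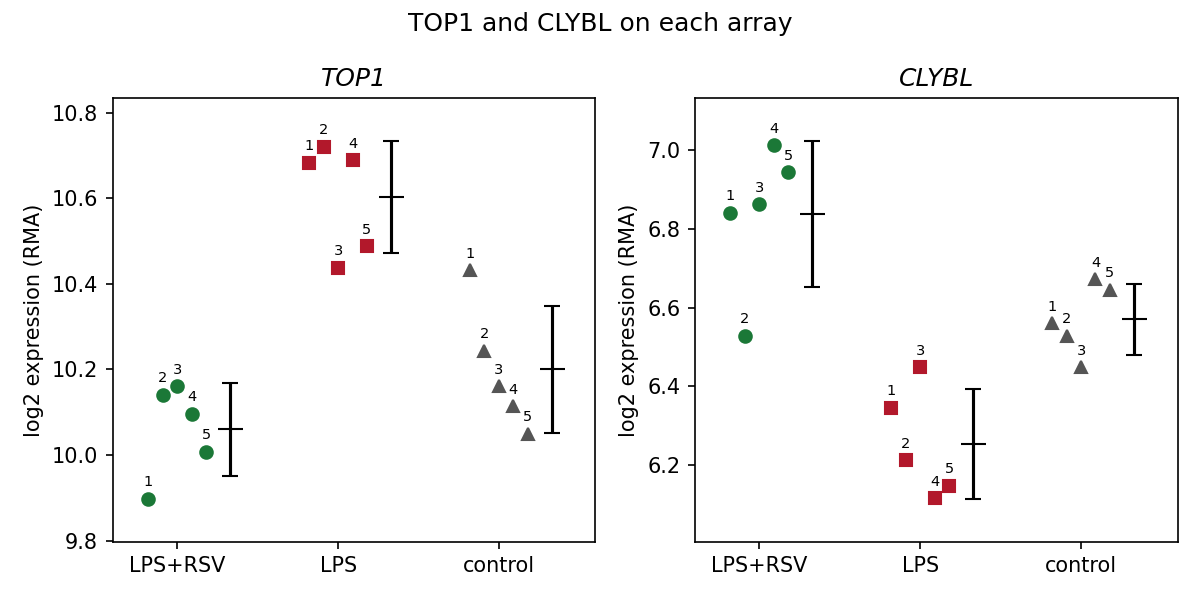
Log2 expression (RMA) of TOP1 (left) and CLYBL (right) on each array of the LPS+RSV, LPS and control groups. Points are arrays with their replicate numbers and bars are the mean ± SD of 5 arrays; TOP1 is highest in LPS, at 10.60, and CLYBL is lowest there, at 6.25.

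LPS+RSV against LPS addresses the effect of pretreatment under endotoxin, and it is the contrast both genes were selected on, so its values are given without a test. TOP1 differed by -0.54 ± 0.08 (SE, limma) on the log2 scale, 0.686 times the LPS level, with a 95% confidence interval of -0.72 to -0.36. CLYBL differed by 0.58 ± 0.09, 1.50 times the LPS level, with an interval of 0.39 to 0.78. Without LPS+RSV replicate 1 the differences were -0.50 for TOP1 and 0.58 for CLYBL. Because the genes were picked for this difference, both sizes may be overstated. In this contrast 0.0424% of the 11804 genes were called at an adjusted p under 0.05, both genes included by construction. In 2.8% the arrays of LPS+RSV and LPS did not overlap, both genes included, which their selection on this contrast favoured. By size of difference TOP1 was only number 319 and CLYBL number 254 of 11804. Their residual SDs, 0.13 and 0.14, stood beside a median of 0.16 over all genes. The next genes inside the threshold were ETV4 at -0.89 ± 0.14 and KRT18 at -0.66 ± 0.11. Just outside lay ANKRD1 at -0.62 ± 0.11, ZBED5-AS1 at 0.47 ± 0.08 and DDX21 at -0.67 ± 0.12.

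The other comparisons each share 5 arrays with the one that chose the genes, and they are not independent of it. LPS+RSV against control asked whether pretreated, endotoxin-exposed cells differed from untreated ones. TOP1 differed by -0.14 ± 0.08 (adjusted p = 0.52, limma), with an interval of -0.32 to 0.04 on the log2 scale. CLYBL differed by 0.27 ± 0.09 (adjusted p = 0.464, limma), 1.20 times the control level, with an interval of 0.07 to 0.46. Without LPS+RSV replicate 1 they differed by -0.10 and 0.27 (adjusted p = 0.962 and 0.898, limma). Neither passed over all genes; 0% of the 11804 genes did in limma, and 10.5% had an unadjusted p under 0.05.

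LPS against control asked what endotoxin alone changed. TOP1 differed by 0.40 ± 0.08 (adjusted p = 0.197, limma), 1.32 times the control level, with an interval of 0.22 to 0.58, and the LPS arrays did not overlap the control arrays, as in 2.21% of genes. CLYBL differed by -0.32 ± 0.09 (adjusted p = 0.351, limma), 0.803 times the control level, with an interval of -0.51 to -0.12. Neither passed, where 0.0254% of genes did and 7.88% had an unadjusted p under 0.05. When arrays were weighted by their quality TOP1 did pass, at 0.42 and an adjusted p = 0.0402 in limma. In the order of levels, TOP1 in LPS+RSV and control did not differ beyond the spread of their arrays, and for CLYBL the LPS+RSV and control ranges overlapped, and the LPS and control ranges met at a point.

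**Figure D2:**
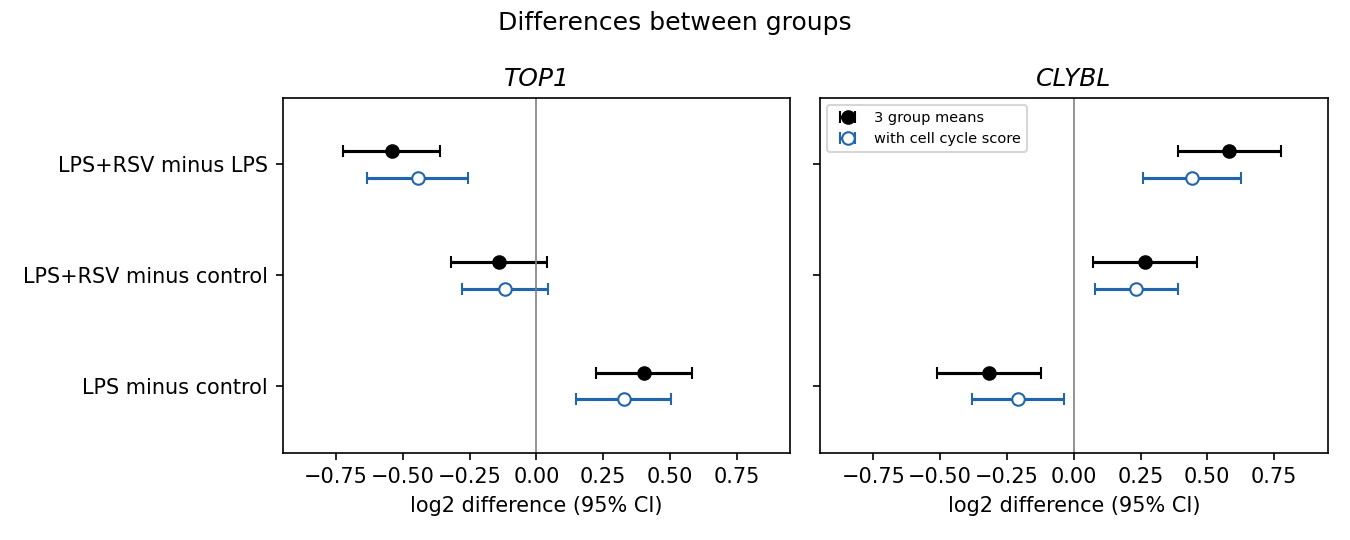
Log2 differences (95% confidence interval) of TOP1 (left) and CLYBL (right) in the 3 comparisons. Filled points come from the model of 3 group means and open points from the model that also holds the cell cycle score; the TOP1 interval for LPS+RSV minus control, -0.32 to 0.04, spans 0.

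Arrays of the same group differed widely in proliferation genes, so both genes were set against a cell cycle score, the mean log2 deviation of 37 genes of mitosis and DNA replication that includes neither gene. The score in LPS+RSV was -0.53, 0.44, -0.16, -0.38 and -0.88 for replicates 1 to 5. In LPS it was 0.18, 0.14, -0.03, 0.87 and 1.01. In control it was 0.45, 0.44, -0.19, -0.37 and -1.0. The ranges overlapped between all groups, with LPS+RSV 0.73 below LPS on average (exact permutation p = 0.0476, 2-sided, Benjamini-Hochberg 0.143 over 3 comparisons). LPS+RSV differed from control by -0.17 (exact permutation p = 0.627, Benjamini-Hochberg 0.627) and LPS from control by 0.57 (exact permutation p = 0.135, Benjamini-Hochberg 0.202).

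CLYBL was lower on arrays of higher cell cycle score within groups. Its slope was -0.19 ± 0.06 log2 units per unit of score (SE, adjusted p = 0.0392 over all genes, limma with 3 group means). Such a slope was common: 23.2% of genes passed in either direction and 9.52% with a slope below 0. Over the 15 arrays with each group centred, Pearson's r was -0.70 (permutation p = 0.00681, Benjamini-Hochberg 0.0139 over 4 relations) and Spearman's rho was -0.70 (permutation p = 0.00697, Benjamini-Hochberg 0.0139). With scores centred on their group means, the 2 arrays farthest from the median were LPS+RSV replicate 2 and control replicate 5. Without them r was -0.59 (permutation p = 0.0813, Benjamini-Hochberg 0.163) and rho -0.64 (permutation p = 0.0523, Benjamini-Hochberg 0.163). The relation was thus weaker and not called without these 2 arrays, where 13 arrays and a narrower range of centred scores remained. The call of the slope was lost without LPS+RSV replicate 2 or 5, LPS replicate 1, 3, 4 or 5, or control replicate 4. It was furthest from the threshold without LPS+RSV replicate 2, at a slope of -0.13 and an adjusted p = 0.199 in limma.

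TOP1 leaned the opposite way, and its slope did not pass. It was 0.13 ± 0.07 log2 units per unit of score (SE, adjusted p = 0.156, limma), with an interval of -0.00432 to 0.273. Pearson's r was 0.54 (permutation p = 0.0611, Benjamini-Hochberg 0.0815) and Spearman's rho 0.49 (permutation p = 0.0822, Benjamini-Hochberg 0.0822), and without the same 2 arrays r was 0.39. Fitted group by group, the TOP1 slope was 0.15 in LPS+RSV, -0.01 in LPS and 0.21 in control. The CLYBL slope was -0.31 in LPS+RSV, -0.25 in LPS and -0.08 in control. A test of whether slopes differed between groups gave an adjusted p = 0.997 for either gene in limma, with 0 genes called and 533, or 4.52%, at an unadjusted p under 0.05. Between the genes themselves, the deviations from the group means had r = -0.32 and rho = -0.41 over 15 arrays that share a normalization.

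With the cell cycle score in the model the differences kept their signs and were smaller. LPS+RSV minus LPS was -0.44 ± 0.09 for TOP1 and 0.44 ± 0.09 for CLYBL, again without a test. LPS+RSV minus control was -0.12 ± 0.08 for TOP1 and 0.23 ± 0.07 for CLYBL (adjusted p = 0.513 and 0.351, limma). LPS minus control was 0.33 ± 0.08 for TOP1 and -0.21 ± 0.08 for CLYBL (adjusted p = 0.0764 and 0.214, limma), where 0.678% of genes passed in that model.

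**Figure D3:**
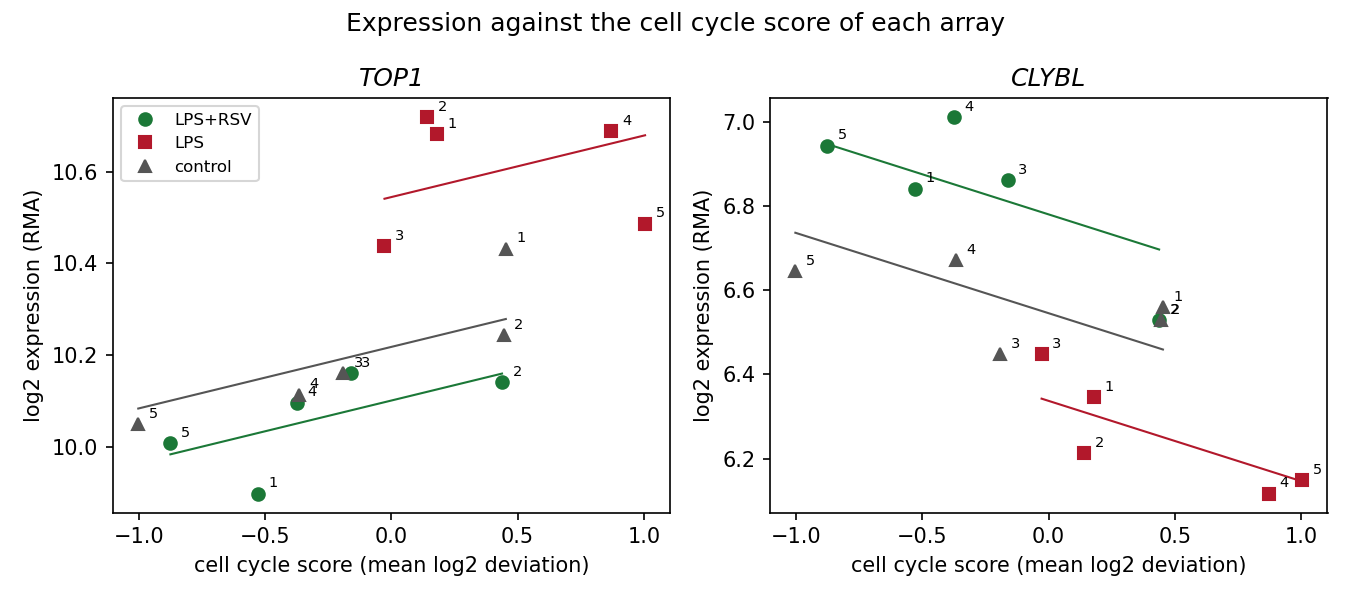
Log2 expression (RMA) of TOP1 (left) and CLYBL (right) against the cell cycle score (mean log2 deviation of 37 genes) of each array, with replicate numbers. Lines have the common within-group slope, 0.13 for TOP1 and -0.19 for CLYBL; LPS arrays lie above all other arrays for TOP1 and below all LPS+RSV arrays for CLYBL.

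TOP1 has processed pseudogenes whose sequence resembles its own, and the array carries a row for each of 2. TOP1P1, on another chromosome, averaged 5.49 ± 0.32 in LPS+RSV, 5.69 ± 0.21 in LPS and 5.65 ± 0.30 in control, with overlapping arrays. It differed by -0.21 ± 0.16 between LPS+RSV and LPS (adjusted p = 0.501, limma). With the cell cycle score in the model that difference was -0.48 ± 0.14 (adjusted p = 0.174, limma), beside -0.44 ± 0.09 for TOP1. LPS minus control was then 0.25 ± 0.13 for TOP1P1 (adjusted p = 0.358, limma) and 0.33 ± 0.08 for TOP1. TOP1P2 averaged 3.64 in LPS+RSV, 3.61 in LPS and 3.58 in control and passed the 40th percentile on 0 arrays. Whether probes of the TOP1 row also bind pseudogene transcripts was not tested, and TOP1 is uncertain to that extent.

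Genes beside the 2 loci did not pass in any comparison. ZHX3, the nearest named gene past TOP1, differed by -0.00142 ± 0.10 between LPS+RSV and LPS (adjusted p = 0.996, limma), and LINC01734 on the other side did not pass the filter. TM9SF2 and ZIC5, on either side of CLYBL, differed by 0.00339 ± 0.07 and 0.09 ± 0.07 (adjusted p = 0.987 and 0.499, limma). The microRNA gene MIR4306 lies inside CLYBL. Its row averaged 4.90 ± 0.20 in LPS+RSV, 5.25 ± 0.32 in LPS and 5.33 ± 0.27 in control, a difference of -0.34 ± 0.15 between LPS+RSV and LPS, where CLYBL was higher, and it did not pass (adjusted p = 0.25, limma).

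Other topoisomerases and the proteins that repair or bind topoisomerase complexes leaned the way TOP1 did in LPS+RSV against LPS, without a call. Of 27 listed genes besides TOP1 16 were tested; 14 were lower and 2 higher, 0 were called, and the median was -0.19 where that of all genes was 0.01. At an unadjusted limma p under 0.05, 6 were lower and 1 higher, where 10.5% of all genes were lower and 8.08% higher. TOP2A, the topoisomerase II of dividing cells, averaged 9.30 in LPS+RSV and 10.60 in LPS, a difference of -1.30 ± 0.44 (adjusted p = 0.166, limma). RECQL, a DNA helicase, differed by -0.77 ± 0.24, and TOPBP1, a replication checkpoint scaffold, by -0.71 ± 0.19 (adjusted p = 0.153 and 0.127, limma). BTBD2, which binds topoisomerase I, was on the other side at 0.29 ± 0.07 (adjusted p = 0.119, limma). BTBD1 of the same list, named after its value was seen, differed by -0.29 ± 0.11 (adjusted p = 0.195, limma).

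These genes followed the cell cycle score within groups more often than not. Among the 16, 12 had a slope above 0 that passed, 1 had a slope below 0 that passed (TDP2, which frees topoisomerase II from DNA ends), and 3 did not pass, against 13.7% and 9.52% of all genes in those directions. TOP2A had a slope of 1.49, and PARP1, which senses DNA breaks, one of 0.41 (adjusted p = 1.77e-10 and 0.000149, limma). The other paralogs, named as a family after their values were seen, differed between LPS+RSV and LPS by -0.36 ± 0.15 for TOP2B, -0.08 ± 0.07 for TOP3A and 0.13 ± 0.08 for TOP3B, and none of these 3 passed. TDP1, which removes stalled topoisomerase I from DNA, averaged 6.94 ± 0.14 in LPS+RSV, 7.02 ± 0.17 in LPS and 6.88 ± 0.23 in control. Against control, 0 of the 16 were called in LPS+RSV and 0 in LPS. The medians were -0.08 in LPS+RSV minus control and 0.10 in LPS minus control, where all genes had 0.02 and 0.01, and 4 and 0 of the 16 had an unadjusted limma p under 0.05, where 10.5% and 7.88% of all genes did.

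The list for CLYBL held enzymes of itaconate and related short dicarboxylic acids, of propionate, and of cobalamin (vitamin B12) handling. Besides CLYBL 12 of 25 listed genes were tested. In LPS+RSV against LPS 7 were higher and 5 lower, 0 were called, the median was 0.09 where that of all genes was 0.01, and 2 higher and 1 lower had an unadjusted limma p under 0.05, where 8.08% and 10.5% of all genes did. SUGCT, a mitochondrial CoA transferase for dicarboxylic acids, averaged 9.18 in LPS+RSV, 8.79 in LPS and 9.20 in control, and differed by 0.38 ± 0.11 between LPS+RSV and LPS (adjusted p = 0.127, limma). MTRR, which reactivates the B12-dependent methionine synthase, was on the other side at -0.28 ± 0.09 (adjusted p = 0.163, limma). TCN2, the plasma B12 carrier, differed by 0.25 ± 0.10, and CUBN, a B12 uptake receptor of the gut, by 0.98 ± 0.49 (adjusted p = 0.21 and 0.294, limma). ACOD1, which makes itaconate in macrophages, lay above the 40th percentile on 0 of 15 arrays. The B12-dependent mutase gene MMUT differed by -0.05 ± 0.07. Within groups 3 of the 12 had a slope below 0 on the score that passed and 1 had one above 0, where 9.52% and 13.7% of all genes did. SUGCT, at -0.23 (adjusted p = 0.0247, limma), was among the 3, like CUBN at -1.54 and the lysosomal B12 exporter gene LMBRD1 at -0.33. Against control 0 of the 12 were called in LPS+RSV and 0 in LPS, with medians of -0.02 and -0.07; 2 and 1 of them had an unadjusted limma p under 0.05, where 10.5% and 7.88% of all genes did.

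**Figure D4:**
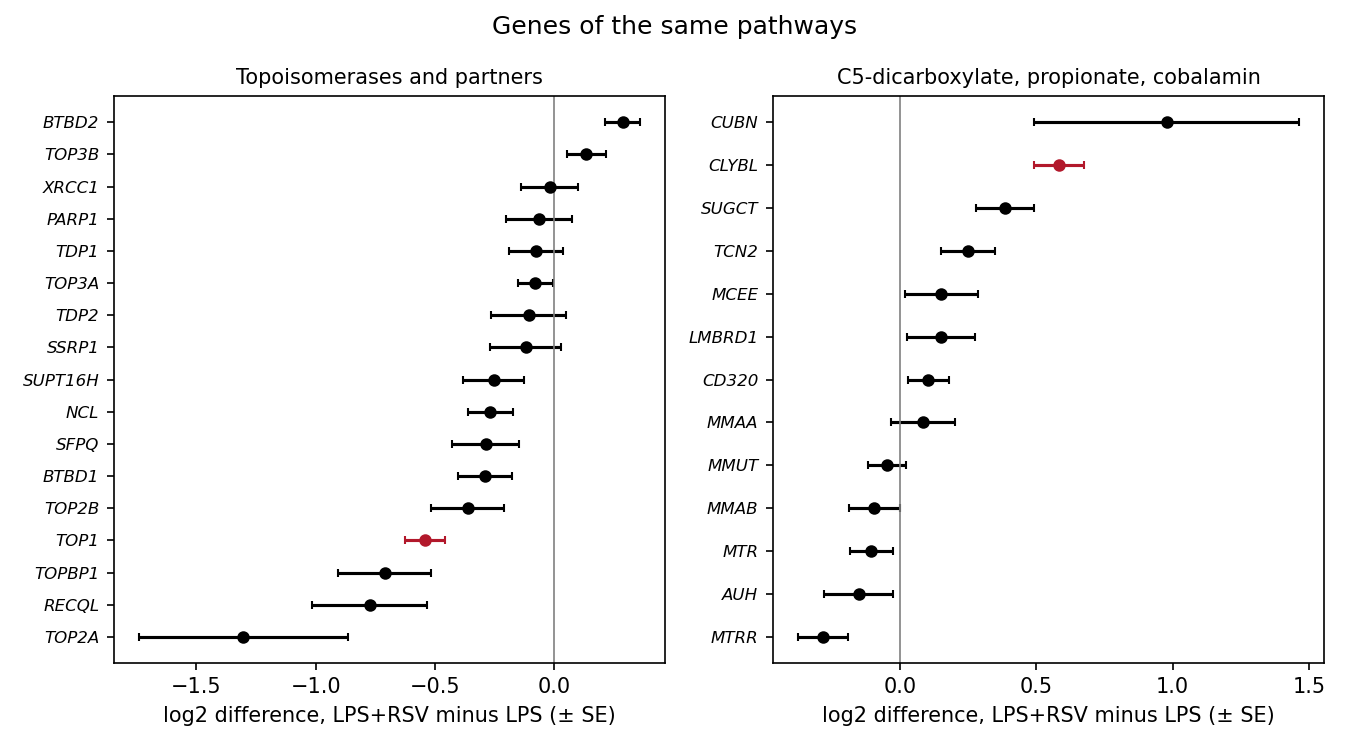
Log2 difference (± SE) between LPS+RSV and LPS for tested genes listed with TOP1 (left, topoisomerases and partners) and with CLYBL (right, C5-dicarboxylate, propionate and cobalamin genes), ordered by size, with TOP1 and CLYBL in red. TOP2A lies lowest on the left at -1.30, BTBD2 highest at 0.29, and CUBN highest on the right at 0.98 with the widest error.

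The genes whose values ran most like those of TOP1 over the 15 arrays were PKP2, a desmosome plaque protein (Pearson r = 0.93), LIN54, a subunit of a cell cycle repressor complex (0.92), the annexin ANXA4 (0.92), PWWP2A (0.91) and the epithelial transcription factor KLF5 (0.91). Those that ran most against it were the hydrolase CMBL (-0.96), ZBED5-AS1 (-0.92), HYKK (-0.92), the guidance receptor NEO1 (-0.91) and SIRT3, a mitochondrial deacetylase (-0.91). These r hold group differences as well as spread within groups, and the arrays share a normalization. CMBL, whose r was farthest from 0, averaged 7.95 in LPS+RSV, 7.62 in LPS and 7.88 in control, and r between deviations from group means was -0.87. On deviations alone the highest were MACF1 (0.92), BIRC6 (0.90), QTMAN (0.90), FILIP1L (0.90) and CARMIL1 (0.87).

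For CLYBL the closest were NFS1, the mitochondrial cysteine desulfurase of iron-sulfur cluster assembly (r = 0.91), TMEM44-AS1 (0.91), PEX19, a chaperone of peroxisomal membrane proteins (0.90), the DNA repair enzyme MGMT (0.90) and the phosphatase LHPP (0.89). The most opposed were SEH1L, a nuclear pore subunit (-0.94), DDX21, a nucleolar RNA helicase (-0.92), RAPH1 (-0.90), SBNO1 (-0.89) and LIN54 (-0.89). LIN54 appeared on the side of TOP1 and opposite CLYBL, with means of 7.83 in LPS+RSV, 8.48 in LPS and 8.02 in control. TOP1 and CLYBL were picked on a contrast where they differed in opposite directions, which by itself favours such opposite r. On deviations alone the highest for CLYBL were CAPN13 (0.94), SETBP1 (0.90), SYT7 (0.90), MSR1 (0.89) and ANKRD52 (0.89). SETBP1, at means of 7.31 in LPS+RSV, 7.32 in LPS and 7.44 in control, followed CLYBL within groups and had nearly equal means in LPS+RSV and LPS.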

How the data were processed

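RNA of 15 Caco-2 samples, 5 per group, was measured on an Affymetrix whole-transcript array. The deposited values were log2 expression made by the authors with RMA, per the submitters' processing notes; its version and the array's genome build are not given in the sources used here. RMA makes array distributions alike, so levels are relative. Medians of the arrays ran from 5.49 to 5.54, and precision is limited by the array number. In the platform annotation 16098 rows carry 1 symbol, 0 carry several, and the remaining 37519 are not named.

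Each symbol kept its brightest row. Genes above the 40th percentile of an array's rows on at least 5 arrays were tested: 11804. Limma 3.58.1 in R 4.3.3 (lmFit, eBayes) was fitted to all arrays with 3 group means, p-values adjusted by Benjamini-Hochberg over all genes, threshold 0.05. Slopes came from the same model with the cell cycle score added. Correlations used 100000 shuffles within groups. The scripts were tested on simulated data.

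Named genes were both members, the 5 genes of highest and lowest r with each, and of highest r on deviations, listed pathway genes called or else the 4 of lowest p, genes next to the threshold, and chromosomal neighbours. Members and lists were chosen with earlier results of these data known. Of the 44 cell cycle genes listed, 37 were tested. Alternatives covered filter, rows per gene, scaling, moderation, weights, groups fitted, block, score and each array left out.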

Additional observations from a re-analysis of the deposited data

How the results depend on the processing

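The LPS+RSV minus LPS differences of TOP1 and CLYBL kept their sign in all 25 alternatives, within -0.58 to -0.44 and 0.44 to 0.66; leaving out 1 array gave -0.58 to -0.50 and 0.54 to 0.66. Against control the signs held too, and 1 call was gained: TOP1 in LPS minus control with array weights (0.42, adjusted p = 0.0402, over alternatives 0.0402 to 0.854, limma). The CLYBL slope on the score was not called with no filter (-0.19, adjusted p = 0.0541) or over all rows (-0.19, 0.116), where more features are tested, nor with arrays centred on their medians (-0.17, 0.0709) or with the replicate number as a block (-0.18, 0.12); leaving out 1 array gave -0.23 to -0.13. Its correlation was -0.59 and not called without the 2 arrays farthest by group-centred score, where fewer arrays remain. Genes called in LPS+RSV minus LPS numbered 5, against 3 over all rows, 25 with array weights, 3 with the replicate block, 12 with the score as covariate and 1 without LPS replicates 1 and 2. A limma fit to those 2 groups alone called 0, with 1897 at an unadjusted p under 0.05. Leaving out 1 array gave 1 to 121 called genes. The count was 1 without LPS+RSV replicate 1, 3, 4 or 5, LPS replicate 1, 2, 4 or 5, or control replicate 3 or 4. Without control replicate 1 it was 3, and without control replicate 2 or 5 it was 5. Without LPS replicate 3 it was 102, and without LPS+RSV replicate 2 it was 121. In LPS minus control 3 were called, against 1 with centred arrays, 15 with array weights, 6 with the block, 80 with the score as covariate and, in a limma fit to the 2 groups alone, 0, where 1101 had an unadjusted p under 0.05; leaving out 1 array gave 1 to 10. In LPS+RSV minus control limma called 0 in the reported fit, with 1239 genes at an unadjusted p under 0.05, and 0 in every alternative run. The cause of any of these changes was not tested. The reported fit did not pair arrays by replicate number. Same-numbered deviations correlated between -0.44 and 0.71 for LPS+RSV with control, where 3 of 5 arrays correlated best with their own number. For LPS+RSV with LPS they correlated between -0.37 and 0.10, and for LPS with control between -0.54 and 0.12. In each of these, 0 of 5 arrays correlated best with their own number. Whether LPS+RSV and control arrays of the same number were pairs is not known. With the block, 0 genes were called higher in LPS+RSV minus LPS, so CLYBL was no longer called there. Nor was any gene called higher there over all rows, in a fit to the 2 groups alone or without LPS replicates 1 and 2. The same held on leaving out any 1 array except LPS+RSV replicate 2, LPS replicate 3, control replicate 2 or control replicate 5. CLYBL was thus not called in those fits either. TOP1 was not called in the fit to the 2 groups alone, where 0 genes were. For the alternatives that called any gene lower, whether TOP1 was among them is not given here. Against control the block changed no call of TOP1 or CLYBL.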
